A study of Drosophila melanogaster with 3 samples.

Results

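The X chromosome carried 577 of the 2988 sites at which a GFP-tagged copy of the Drosophila melanogaster protein CG10274 was found in embryo chromatin. CG10274 is a zinc-finger protein, and its bound DNA had been recovered with an antibody against GFP and sequenced (ChIP-seq), as the samples' description states, while their antibody label reads CG10274. The 577 peaks are all entries on chromosome X in the combined list, which keeps sites that ranked reproducibly between data sets by the irreproducible discovery rate (IDR), on the dm6 build. They are set against the 2411 combined peaks of the autosomes (arms 2L, 2R, 3L, 3R and chromosome 4). All samples were whole embryos of mixed sex, 0 to 24 h old, from 1 transgenic line that stably carries CG10274 with GFP at its C terminus. They form 3 biological replicates of 1 group, so X peaks are compared with autosomal peaks within each replicate, and no treated or mutant group exists. The authors' control data set was not analysed here. The replicate lists hold 30000 entries each, peaks and background together, ranked by the authors' peak score, and they give no read counts, so the depth of each library is unknown.

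Drosophila females have a pair of X chromosomes and males have a single X and a Y. In males the MSL complex, built from the proteins MSL1, MSL2, MSL3, MLE and MOF with the roX1 and roX2 RNAs, coats the X and raises its transcription. It enters the X at GA-rich elements that the zinc-finger protein CLAMP also binds, and Sxl, the X-linked switch gene of sex determination, keeps MSL2 from being made in females. In embryos of mixed sex the X is therefore present at fewer copies per cell, on average, than an autosome, which bears on any signal compared between them. Its part in the values below was not tested.

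The DNA under the strongest X peaks was of no single kind. The 6 highest-scoring X intervals whose central 61 bases touch no annotated exon are printed to show this, from the plus strand of the RefSeq release 6 genome (dm6), with the base under the summit in the middle. Capitals mark CCCTAC on either strand, the word that led the strongest autosomal peaks (described further on), which 1 of the 6 held.
lncRNA:CR45531 (chrX:6859879-6859939, plus strand): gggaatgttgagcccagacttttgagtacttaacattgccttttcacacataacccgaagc
CG43736 (chrX:6863288-6863348, plus strand): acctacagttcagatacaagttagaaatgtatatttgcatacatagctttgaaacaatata
org-1 (chrX:8455255-8455315, plus strand): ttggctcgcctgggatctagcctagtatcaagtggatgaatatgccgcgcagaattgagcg
prage (chrX:1830566-1830626, plus strand): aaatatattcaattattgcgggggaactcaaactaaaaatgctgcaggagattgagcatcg
Ugalt (chrX:2703860-2703920, plus strand): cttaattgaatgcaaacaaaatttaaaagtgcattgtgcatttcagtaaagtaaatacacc
CG11655 (chrX:15453291-15453351, plus strand): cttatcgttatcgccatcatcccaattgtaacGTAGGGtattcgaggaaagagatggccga

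Their GC content ran between 27.9% at Ugalt and CG43736 and 52.5% at org-1.

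Further down the list the same word was found in X peaks at genes of other kinds. Of the next 6 exon-free cases in order of score, 5 are printed as 36 bases on the strand that reads CCCTAC, which is in capitals.
orion (chrX:7944953-7944988, plus strand): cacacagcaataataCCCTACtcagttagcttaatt
Act5C (chrX:5900338-5900373, plus strand): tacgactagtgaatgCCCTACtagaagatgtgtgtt
Tob (chrX:16090634-16090669, plus strand): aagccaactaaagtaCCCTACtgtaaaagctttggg
OdsH (chrX:17799195-17799230, plus strand): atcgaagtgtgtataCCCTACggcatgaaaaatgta
wupA (chrX:18118729-18118764, minus strand): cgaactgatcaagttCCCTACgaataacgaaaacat

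Over the 35 occurrences within 50 bp of an X summit, the base just before the word (position -1) was most often A (54.3%), the one at -2 was T (74.3%), and those at -3 and -4 were A (62.9% and 57.1%). In the 52 occurrences at the first 300 autosomal peaks, the same 4 bases led at these positions, with shares of 55.8%, 63.5%, 63.5% and 38.5%. After the word, the commonest base at position 8, counting from 1 at the word's first C, was A on X (37.1%) and C on autosomes (48.1%). The X occurrences come from all combined X peaks and the autosomal ones from the strongest only, so unlike scores are compared. Genes named beside the sequences are those nearest by TSS (transcription start site), among protein-coding genes in the second set, and both sets were chosen after the values were seen.

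X-linked ribosomal protein genes are shown by the sequence just before their TSS. Most of their summits lay close to the TSS, on either side of it, and that of RpL22, at -65 bp, lay beyond the bases printed. The 60 bases before the TSS nearest the summit are printed for the 4 highest-scoring such genes whose stretch touches no annotated exon, in the direction of transcription, with capitals for ATCGAT, the core of the DNA replication-related element.
RpS28b (chrX:9554563-9554622, plus strand): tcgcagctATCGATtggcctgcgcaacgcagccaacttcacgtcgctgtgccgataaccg
RpS10b (chrX:19597971-19598030, plus strand): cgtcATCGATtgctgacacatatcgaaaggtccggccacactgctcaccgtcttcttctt
RpS5a (chrX:17148265-17148324, minus strand): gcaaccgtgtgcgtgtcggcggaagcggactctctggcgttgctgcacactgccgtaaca
RpL22 (chrX:765131-765190, minus strand): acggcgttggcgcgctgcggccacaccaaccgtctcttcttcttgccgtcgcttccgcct

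ATCGAT, a word that reads the same on both strands, was held by 5 of the 14 X-linked ribosomal protein genes in this 60-base window (35.7%), by 10 of 48 autosomal ones with a promoter peak (20.8%), and by 13.6% of all 3275 windows before TSSs of X-linked protein-coding genes. GCCACAC, searched on both strands after it was seen in RpS10b and RpL22, was held by 4 of the 14 (28.6%), 6 of the 48 (12.5%) and 1.37% of all 3275. A match is a description of letters and not a site.

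The first question was whether X carried more peaks than its length or gene content. X peaks stood at 24.5 per Mb and autosomal peaks at 21.9 per Mb, a ratio of 1.12 (1.02 to 1.23 from the 95% Wilson interval of the X share, which covers the counting of peaks only). Over whole arm lengths no autosomal arm came higher: arm 2L had 23.1 peaks per Mb, 2R 21.8, 3L 21.6 and 3R 21.8, and chromosome 4 had 7.42. Long stretches without peaks, which autosomal arms hold too (described further on), were not left out of these lengths. The order of the arms without them was not tested. X holds fewer TSSs for its length than the autosomes together. Per 1000 TSSs the distance from them therefore widened, to 147.7 on X against 122.5 on autosomes. By arm the values were 118.1 on 2L, 113.4 on 2R, 133.6 on 3L, 127.5 on 3R and 54.6 on chromosome 4. Arm 3L has fewer TSSs for its length than X, and its distance from X narrowed in proportion. The authors' combined list on the dm3 build gave nearly the same X share, 526 of 2716 peaks (19.4%), against 19.3% on dm6.

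All 3 replicates gave that excess among their strongest entries, and only replicate 2 gave it further down. Of the 300 highest-scoring entries, 60 lay on X in each of replicates 1, 2 and 3 (20% each), where X makes up 17.6% of the X and autosomal length. Among the top 1000, X density was 8.45, 8.96 and 9.09 peaks per Mb in replicates 1, 2 and 3, against 7.26, 7.15 and 7.12 on autosomes. X was higher in 3 of 3 replicates by a mean ratio of 1.23 ± 0.0590 (SD, n = 3, exact sign-flip permutation test, two-sided, p = 0.25). That is the smallest p that this test allows with 3 replicates, so none of the 30 comparisons of X with autosomes over replicates could pass 0.05, adjusted or not.

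Among the top 2988 entries, as many as there are combined peaks, X density was 22.05, 25.6 and 20.7 per Mb in replicates 1, 2 and 3, against 22.4, 21.6 and 22.7 on autosomes. The replicates went both ways, with X higher in replicate 2 only (mean ratio 1.03 ± 0.140, SD, n = 3, exact sign-flip p = 1). Among the top 10000 X was lower in 3 of 3 replicates, at ratios of 0.872, 0.851 and 0.629 (exact sign-flip p = 0.25). These deeper entries mix peaks with background, as the lists are labelled.

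**Figure D1:**
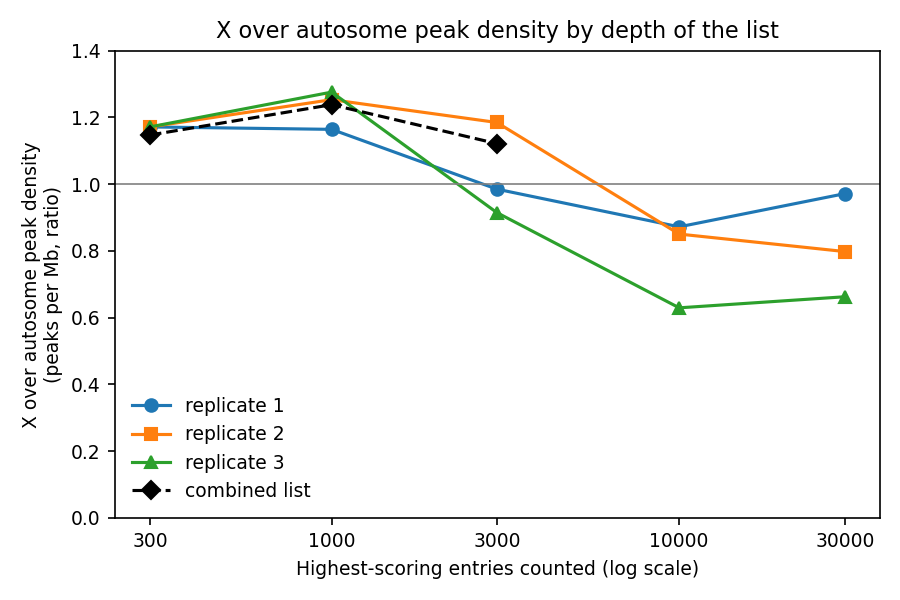
Ratio of X to autosome peak density (peaks per Mb, vertical axis) against the number of highest-scoring entries counted (horizontal axis, log scale) in each replicate list and in the combined list. All 3 replicates lie above 1 at 300 and 1000 entries and below 1 at 10000 and 30000.

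The second question was where on X the peaks lay, and they were more often intronic and less often intergenic than autosomal peaks. Of the 577 X summits, 265 were intronic and over 500 bp from any TSS (45.9%, 95% Wilson interval 41.9 to 50.01), against 864 of 2411 autosomal summits (35.8%, 33.9 to 37.8). Promoters, taken as 500 bp either side of a TSS, held 250 X summits (43.3%, 39.3 to 47.4), against 1163 autosomal ones (48.2%, 46.2 to 50.2). The lower promoter share was not particular to X. Arm 3L had 43.7%, against 49.4% on 2L, 52.4% on 2R, 48.1% on 3R and 50% on chromosome 4. Intergenic X summits numbered 43 (7.45%, 5.58 to 9.89), against 320 on autosomes (13.3%, 11.98 to 14.7). Only 3 X summits lay in coding exons outside promoters.

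Introns make up more of the X (43.3% of its bases) than of the autosomes (38.6%), so densities were also taken per Mb of each class. Intronic X peaks then stood at 25.97 per Mb of intron, against 20.3 on autosomes, a ratio of 1.28. Intergenic X peaks stood at 8.10 per intergenic Mb, against 10.3, a ratio of 0.788. Promoter peaks stood at 84.2 per Mb of promoter window on X, against 76.6 on autosomes, a ratio of 1.10. Per Mb of chromosome they were nearly level, at 10.6 on X and 10.5 on autosomes.

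The intron and intergenic differences had the same direction in every replicate. Intron density among the top 2988 entries was 23.1, 28.5 and 23.2 per Mb on X in replicates 1, 2 and 3, against 19.96, 19.9 and 21.4 on autosomes. The X values were above all autosomal ones, with a mean ratio of 1.23 ± 0.183 (SD, n = 3, exact sign-flip p = 0.25). Intergenic density was 5.46, 9.41 and 9.23 per Mb on X, against 8.51, 11.7 and 17.7 on autosomes, lower on X in 3 of 3 replicates (mean ratio 0.655 ± 0.140, SD, n = 3, exact sign-flip p = 0.25).

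Among the strongest entries the X excess lay outside promoters. Outside promoters, the top 1000 entries gave 4.67, 4.88 and 4.76 peaks per Mb on X in replicates 1, 2 and 3, against 3.20, 3.11 and 3.23 on autosomes. That is a mean ratio of 1.502 ± 0.0604 (SD, n = 3, exact sign-flip p = 0.25), and the groups did not overlap. At promoters the same entries gave 3.78, 4.08 and 4.33 on X, against 4.06, 4.04 and 3.90 on autosomes, with X lower in replicate 1 and higher in replicates 2 and 3 (exact sign-flip p = 0.75). Among the top 2988 the ratio outside promoters was 1.10, 1.33 and 0.869 in replicates 1, 2 and 3, so replicate 3 went the other way (exact sign-flip p = 0.75). Both sets of densities were taken after the data were seen.

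Promoter shares followed from this. Among the top 1000 entries 44.7%, 45.5% and 47.7% of X summits were promoter summits in replicates 1, 2 and 3, against 55.9%, 56.5% and 54.7% of autosomal summits. Among the top 2988 the shares were 45.7%, 39.97% and 38.1% on X, against 51.5%, 46.5% and 34.9% on autosomes, so replicate 3 went the other way (mean difference -3.04 percentage points ± 5.44, SD, n = 3, exact sign-flip p = 0.5).

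**Figure D2:**
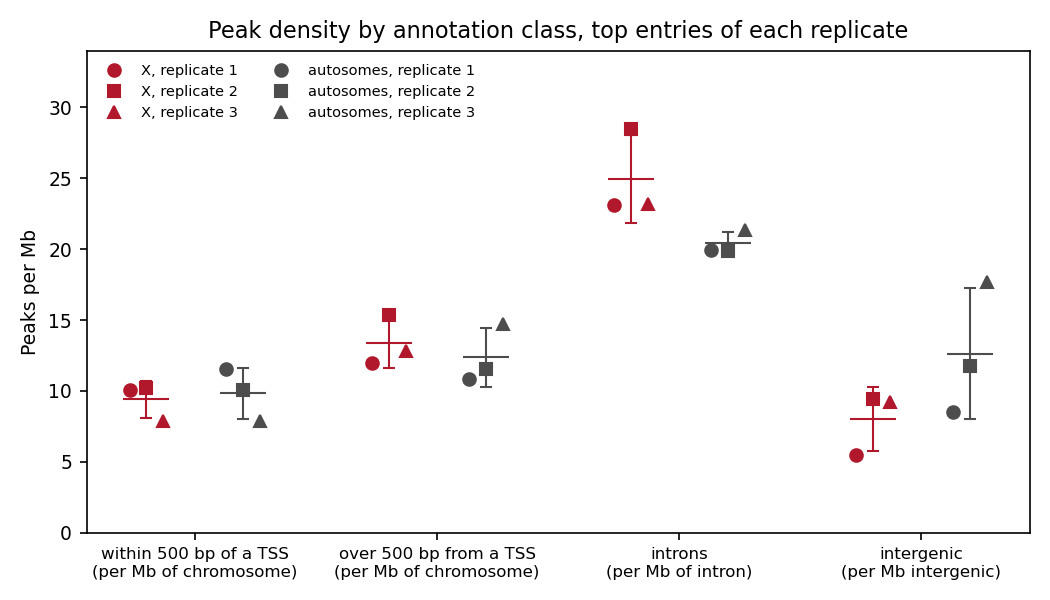
Peaks per Mb (vertical axis) among the top 2988 entries of each replicate for X (red) and autosomes (grey), for summits within or over 500 bp from a TSS per Mb of chromosome, and for introns and intergenic sequence per Mb of that class. Horizontal bars are means and whiskers SDs over 3 replicates. X lies above the autosomes for introns and below them for intergenic sequence within every replicate.

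Peak scores showed a similar split. Median scores of X promoter peaks in the combined list were 106.1, 72.6 and 63.3 in replicates 1, 2 and 3, against 117.2, 73.9 and 64.4 for autosomal promoter peaks, lower on X in 3 of 3 (exact sign-flip p = 0.25). Outside promoters they were 99.8, 72.8 and 55.5 on X, against 99.8, 64.7 and 49.7 on autosomes, level in replicate 1 and higher on X in replicates 2 and 3 (exact sign-flip p = 0.25). The combined list was made from these replicates, so the shared direction is no independent check.

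The share of peaks supported by all 3 replicates was higher on X, but the intervals overlap and the difference was not tested. Of the X peaks, 311 overlapped a top-2988 entry of all 3 replicates (53.9%, 49.8 to 57.9), against 1193 autosomal peaks (49.5%, 47.5 to 51.5) and 50.3% of the whole combined list. Replicates 1, 2 and 3 supported 443, 500 and 406 X peaks (76.8%, 86.7% and 70.4%), against 79.3%, 82.6% and 65.2% of autosomal peaks. X was thus lower in replicate 1 and higher in replicates 2 and 3. No replicate supported 8 of the X peaks, and this was not counted for autosomal peaks. Support went with score, at 94 of the 100 highest-scoring X peaks and 5 of the 100 lowest. Score and support come from the same replicates, so this is no independent check, and autosomal peaks were not counted by score.

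Named X peaks are described by their relative score, the score in a replicate divided by that replicate's median over combined peaks present in all 3 lists. The strongest X peak covered the start of CG8188 (FBgn0030863, 17698917 to 17703024, minus strand), ranked 10 of 2988 and ran from 17702498 to 17703443. It stood at 36.2, 24.5 and 35.2 times the median in replicates 1, 2 and 3, high in every one. Its summit was 87 bp inside the gene.

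The next interval, 6859639 to 6860417, held 2 summits, at ranks 18 and 33, upstream of the non-coding gene lncRNA:CR45531 and inside CG14434. Its relative scores were 27.8, 12.3 and 16.6 in replicates 1, 2 and 3, highest in replicate 1. A second strong interval, 6862976 to 6863774, lay at -570 bp from the start of CG43736, at rank 26, with 24.5, 9.56 and 13.9. Replicate 1 was again the highest of the 3.

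Developmental regulators were among the promoters with the strongest X peaks. The org-1 gene (T-box transcription factor, 8447691 to 8455069, minus strand) had its summit at -216 bp and relative scores of 15.1, 12.4 and 13.9 in replicates 1, 2 and 3. The ph-p gene, which encodes the Polyhomeotic subunit of the Polycomb repressive complex PRC1 (2126210 to 2138371, minus strand), had summits at ranks 80 and 131, at -475 and 431 bp from the nearest TSS. At the stronger of these the relative scores were 3.95, 8.45 and 7.60, lowest in replicate 1. The stress-response bZIP gene Atf3 stood at 3.65, 5.31 and 5.13, also lowest in replicate 1. The neuronal RNA-binding protein gene elav stood at 2.48, 2.73 and 2.96, and moody, a receptor gene of the blood-brain barrier, at 2.98, 2.78 and 2.79, each close in all 3 replicates.

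Genes of the secretory pathway and of basic cell functions were also among them. Edem1, which acts in the degradation of misfolded proteins of the endoplasmic reticulum, stood at 14.2, 8.62 and 11.9 in replicates 1, 2 and 3, with its summit 108 bp inside the gene. Ugalt, a UDP-galactose transporter gene of the Golgi, stood at 9.48, 12.8 and 12.8, with the summit at -38 bp. The Act5C peak, at -484 bp from the start of this cytoplasmic actin gene, stood at 6.07, 4.52 and 4.55, and its nearest TSS was that of lncRNA:CR45668. The others of the 20 highest-scoring supported promoter peaks were CG11655 (10.7 ± 3.40), CG3638 (6.59 ± 0.881), orion (5.89 ± 2.23), a gene of neuron-to-glia signalling in axon pruning, MFS10 (4.20 ± 0.506), CG2145 (3.50 ± 2.78), CG3009 (2.99 ± 0.476), the tyrosine phosphatase gene Ptpmeg2 (2.96 ± 0.305), the mitochondrial ribosome gene mRpS30 (2.94 ± 1.47), the HMG-box gene bbx (2.93 ± 0.253) and CG11162 (2.84 ± 1.68) (SD, n = 3 each). At CG2145 replicate 1 gave 6.71, against 1.82 in replicate 2 and 1.96 in replicate 3, and replicate 1 stands apart.

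Away from TSSs, 173 X peaks had none within 2000 bp (29.98% of 577). The highest was an interval with 2 summits in an intron of Mnt (3677654 to 3678379), which encodes the repressor partner of Max that opposes Myc. Its relative scores were 15.2, 4.87 and 6.51 in replicates 1, 2 and 3, with replicate 1 far above the others. The peak at -12584 bp from Myc, the growth regulator itself, stood at 10.8, 5.19 and 7.52, and its nearest TSS was that of lncRNA:CR46243 at -3111 bp. Kinase genes of signalling and chromatin assembly followed in their introns, Raf at 8.12, 6.43 and 6.71 and Tlk (Tousled-like kinase) at 4.55, 5.03 and 4.15, each close in all 3 replicates.

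The remaining distal peaks among the 10 highest were at regulators and at membrane and RNA-binding protein genes. They lay at -6568 bp from ovo, the germline zinc-finger gene (3.90 ± 0.766), at -10615 bp from the homeobox gene OdsH (3.93 ± 0.538), in the potassium channel gene Ork1 (3.41 ± 1.08), in the nuclear receptor gene Hr4 (3.40 ± 0.363) and in the elav relative fne (3.18 ± 1.54) (SD, n = 3 each). At the other end of the list, the lowest-scoring X peaks were at sdt, an epithelial polarity gene, at rank 2974, and at Shawn, a mitochondrial carrier gene, at rank 2960. The sdt peak stood at 0.744, 0.286 and 0.298 in replicates 1, 2 and 3, and replicate 3 listed no peak at Shawn.

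**Figure D3:**
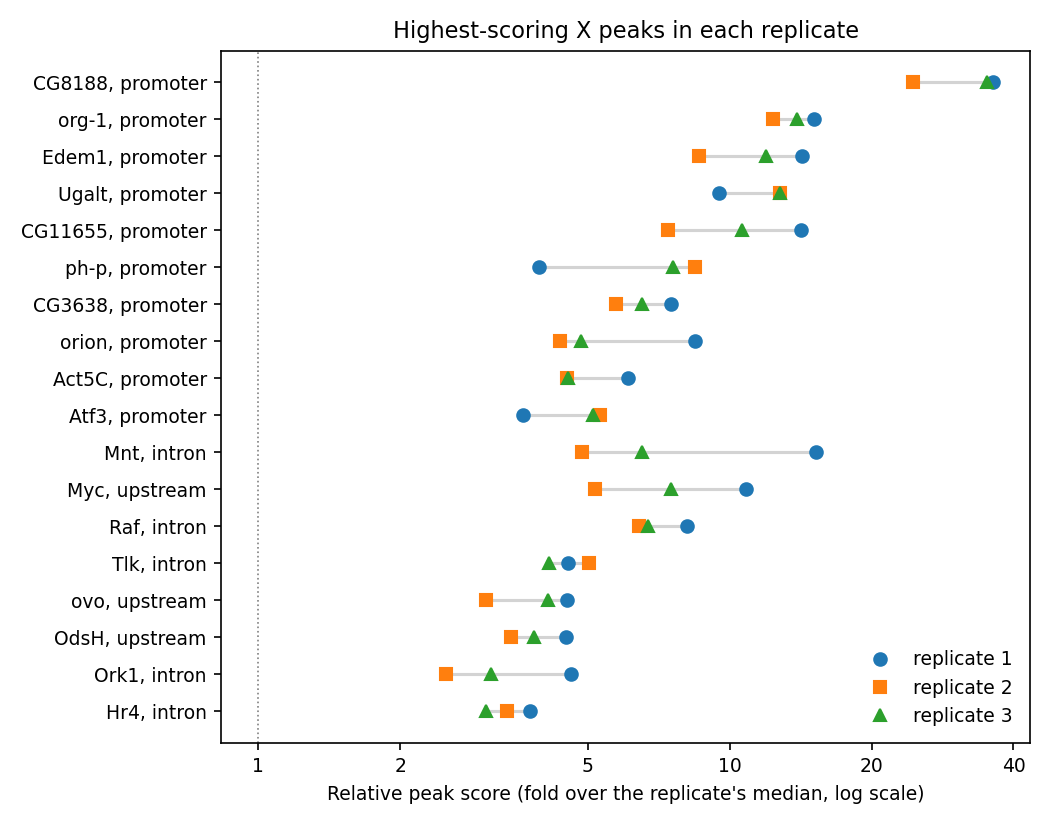
Relative peak score (horizontal axis, log scale, fold over each replicate's median) of the strongest X promoter and distal peaks, one row per interval, with 1 point per replicate. Every point lies to the right of the median, drawn as a dotted line at 1, and of the peaks drawn Mnt has the widest spread.

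Peaks were unevenly laid along X. The bin from 6000001 to 7000000 held 49 combined peaks and that from 2000001 to 3000000 held 47, and the first had 54, 49 and 40 top-2988 entries in replicates 1, 2 and 3. The first 20 Mb held 551 peaks (27.6 per Mb), and the remaining 3.54 Mb, towards the centromere, held 26 (7.34 per Mb). Per 1000 TSSs these came to 155.9 and 69.7. The replicates gave 25.1, 28.95 and 23.4 entries per Mb over the first 20 Mb, against 5.08, 6.78 and 5.65 beyond it, so the groups were far apart in each. The longest stretch between neighbouring X summits ran from 21594080 to 22491168 (897088 bp) and holds 38 whole protein-coding genes. How well reads can be placed there was not tested. Autosomal arms were not split in this way, but long stretches without a combined summit occur on them too. Between neighbouring summits the longest stretch was shorter on each autosomal arm, at 631236 bp on 2L, 352606 on 2R, 489060 on 3L, 335566 on 3R and 357544 on chromosome 4. Longer ones lay beyond an arm's outermost combined summit. The nearest combined summit was at -4388360 bp from RpL15 on 3L and at -1429160 bp from RpL38 on 2R. Replicate lists did hold top-2988 promoter entries there, at RpL15 in replicate 3 and at RpL38 in replicates 2 and 3.

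Neighbouring summits were about as close as on the large autosomal arms. On X 64.8% of summits had another within 10 kb (60.8 to 68.6), against 65.4% on 2L, 65.2% on 2R, 63.1% on 3L and 63.7% on 3R. The median distance between neighbouring summits was 14217 bp on X, against 14292 bp on 2L and 16352 bp on 3R. X had the highest share of any arm in replicates 2 (64.2%, against 63.7% on 2R) and 3 (58.6%, against 55.2% on 2R), and not in replicate 1 (66.1%, against 72.6% on 2R).

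The densest 100 kb window, 6800001 to 6900000, held 14 combined peaks, with 12, 13 and 9 top entries in replicates 1, 2 and 3. Its peaks lay nearest to pod1, an actin and microtubule crosslinker gene, CG14435, Tmf, a Golgi protein gene, CG4558, CG14434, lncRNA:CR45531 and CG43736. The second, 9500001 to 9600000, held 12 combined peaks and 10, 12 and 10 entries. Its nearest genes were mgl, the megalin endocytic receptor gene, l(1)G0320, RpS28b, LPCAT, Hex-A, the hexokinase gene, and the non-coding lncRNA:CR45541, lncRNA:CR45542 and lncRNA:CR45543. Support by all 3 replicates held for 10 of the 12 there and for 7 of the 14 in the first window.

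Several X-linked genes carried a series of summits within their annotated span. CHES-1-like, a forkhead transcription factor gene of 27048 bp, held 11, with 10, 10 and 8 entries in replicates 1, 2 and 3. Hr4 held 8 over 66017 bp and Raf 8 over 48405 bp, 7 of the 8 in each supported by all 3 replicates. Tlk held 9, at 10, 6 and 4 entries in replicates 1, 2 and 3, fewest in replicate 3. CG1677 held 12 and kirre, a cell adhesion gene of muscle fusion, held 10, but these spans of 124709 and 394149 bp overlap 14 and 23 other annotated genes. These genes were picked for their counts, which are given as a description.

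The third question was which X-linked genes had a peak at a promoter. A combined summit within 500 bp of a TSS was found at 253 of 2196 X-linked protein-coding genes (11.5%, 10.3 to 12.9), against 1294 of 11749 autosomal ones (11.01%, 10.5 to 11.6), and 11.1% of both together. Among peaks supported by replicates 2 and 3 alike the X count was 136, by replicates 1 and 3 it was 130, and by replicates 1 and 2 it was 162. In replicates 1, 2 and 3 the shares were 9.97%, 10.8% and 7.79% on X, against 11.3%, 10.6% and 7.98% on autosomes. X was lower in replicates 1 and 3 and higher in replicate 2 (exact sign-flip p = 0.5).

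Genes of dosage compensation had none. None of the 10 genes of that list, 3 of them X-linked, had a promoter peak, against 11.1% of all protein-coding genes, a share from which so short a list cannot be told apart. At roX1 (lncRNA:roX1, 3857230 to 3862697, minus strand) the nearest combined summit was 5950 bp away, and the best entry at the gene ranked 16638, 6161 and 22095 in replicates 1, 2 and 3. At roX2 (lncRNA:roX2, 11579065 to 11580432, plus strand) the best entry ranked 4911 in replicate 1 and 2429 in replicate 2, and replicate 3 listed none. The acetyltransferase gene mof had its nearest combined summit at 17910 bp.

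Among 6 X-linked genes of sex determination, Sxl alone had a promoter peak. The Sxl peak (gene at 7074550 to 7098053, minus strand) ranked 749, with its summit 398 bp inside the gene from the nearest TSS and relative scores of 1.30, 1.52 and 1.21 in replicates 1, 2 and 3. It was among the top 2988 of each. The X-linked signal elements that Sxl reads had none within 500 bp: relative to the TSS the nearest combined summit was at -4062 bp for sisA, 14057 bp for upd1, -2429 bp for run and 97960 bp for sc, each an activator of early Sxl transcription.

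In the other lists of X-linked genes, apart from the ribosomal proteins, between 0 and 4 members had a promoter peak. Of 19 patterning and signalling genes, 1 had a peak, sgg, the GSK3 kinase gene (1.80, 2.72 and 2.30 in replicates 1, 2 and 3). Raf, of the same list, had 8 summits in its span and none within 500 bp of a TSS. Among 14 genes of the nervous system 3 had one, elav, the cAMP phosphodiesterase gene dnc (2.72 ± 0.753, SD, n = 3) and the adenylyl cyclase gene rut, which replicate 3 did not list. Chromatin regulators had 3 of 13, which were ph-p, its tandem copy ph-d (0.778 ± 0.127, SD, n = 3) and the CBP acetyltransferase gene nej. How reads were placed between ph-p and ph-d was not tested.

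Growth and cell cycle genes had 1 of 7, Mnt, at rank 2670, and metabolic genes 1 of 10, Hex-A (2.00, 1.64 and 1.92 in replicates 1, 2 and 3). The Mnt promoter had a top-2988 entry in replicate 1 only. Of the metabolic list, w had a top-2988 promoter entry in replicates 2 and 3, without a combined one. The ecdysone response genes Hr4, br and usp had 0 of 3, with the nearest combined summits at -1823, -3391 and -7972 bp from a TSS. In replicate 2 alone, usp had a top-2988 promoter entry. Muscle and cytoskeleton genes had 4 of 8, namely Act5C, the myosin light chain gene sqh, the integrin gene if and the moesin gene Moe (1.14 ± 0.282, SD, n = 3). The 95% Wilson interval of the last share lay above 11.1% (50%, 21.5 to 78.5), in a list of 8 genes chosen with earlier results known, and replicates 1, 2 and 3 had 4, 4 and 2 of the 8. The intervals of the other lists in this and the preceding paragraph held 11.1%.

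All X-linked genes in the list of cytosolic ribosomal proteins had a promoter peak in the combined list. The list, taken by symbol, had 14 X-linked members, and 14 had a combined summit within 500 bp of a TSS (100%, 78.5 to 100), against 48 of 78 autosomal members (61.5%, 50.4 to 71.6). In replicates 1, 2 and 3 there were 11, 13 and 10 of the 14 on X, against 47, 47 and 30 of the 78 on autosomes. The X share was higher in 3 of 3 replicates, by a mean of 28.0 percentage points ± 8.36 (SD, n = 3, exact sign-flip p = 0.25). This comparison was added after the data were seen.

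The lists differ in how many gene copies they hold. Among genes that share their name's number with another copy, such as RpS5a and its autosomal copy RpS5b, X had 9 of 9 with a peak, against 7 of 18 on autosomes (38.9%, 20.3 to 61.4). Among genes with no such copy X had 5 of 5 (56.6 to 100), namely RpL17, RpL35, RpL36, RpL7A and RpS6, against 41 of 60 on autosomes (68.3%, 55.8 to 78.7), and these intervals overlap. Autosomal members without a peak included the copies RpS5b, RpS19b, RpS28a and RpL22-like, whose X-linked partners RpS5a, RpS19a, RpS28b and RpL22 had one, and also RpL5 and RpS3, which have no copy in the list.

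The X-linked members differed in strength. RpS28b stood at 1.93, 2.70 and 2.43 and RpS10b at 1.97, 2.59 and 2.46 in replicates 1, 2 and 3, lowest in replicate 1 for both. RpL22 stood at 1.403, 1.48 and 1.63, RpS19a at 1.42, 1.29 and 1.23, and RpS15Aa at 0.975, 1.18 and 1.71. RpS5a had 1.51 in replicate 1 and 2.16 in replicate 2 and was not listed in replicate 3, nor were RpL36, RpL35 and RpS14a. RpS14a and RpS14b, at ranks 2013 and 1726, are tandem copies, and how reads were placed between them was not tested. RpL17 (1.16 ± 0.160), RpL7A (0.957 ± 0.216), RpL37-1 (0.955 ± 0.147) and RpS6 (0.819 ± 0.163) were near or below the median (SD, n = 3 each).

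Their summits lay at the TSS. For each of the 14 genes only the summit nearest its TSS was taken, and RpS5a had 2 promoter summits. These had a median position of -21.5 bp (quartiles -33.8 and -15.3), and 11 lay within 50 bp of the TSS. Any ribosomal protein gene under a symbol outside the list counts among the other genes. Summits at other X-linked protein-coding promoters had a median of -171 bp (quartiles -276 and -35), with 20 of 221 within 50 bp (9.05%). No test was made of this difference, which was looked at because it was known from all chromosomes.

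**Figure D4:**
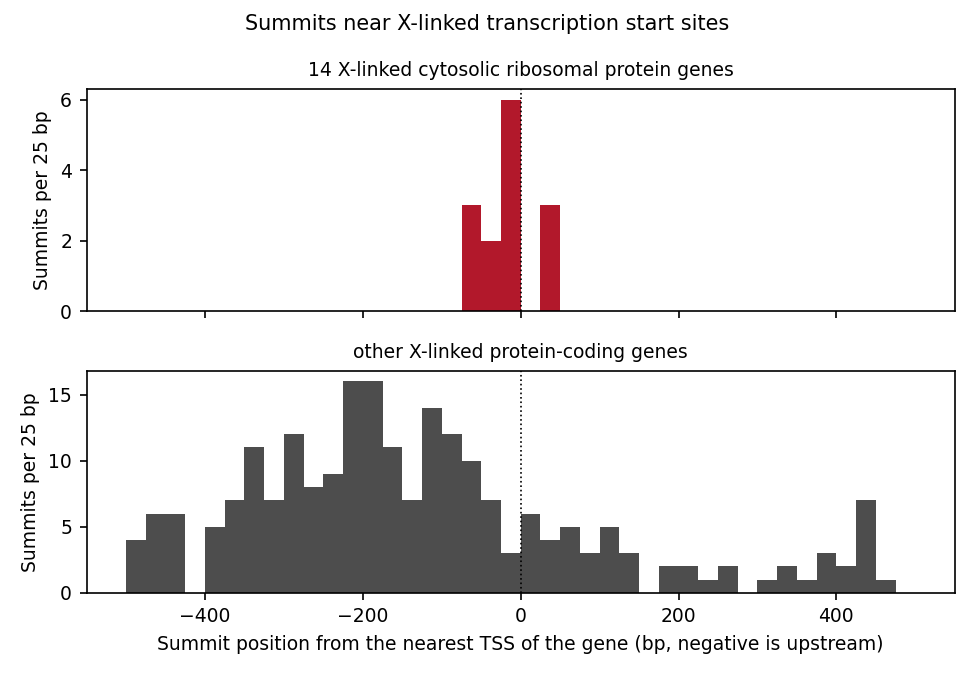
Summit positions relative to the nearest TSS of the gene (horizontal axis, bp, negative is upstream) as summits per 25 bp (vertical axis), for the 14 X-linked cytosolic ribosomal protein genes of the list, taken by symbol (above), and all other X-linked protein-coding genes (below). The ribosomal protein summits span -65 to 39 bp, while the others spread over the whole window with a median of -171 bp.

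The fourth question was which short sequences lay under X peaks. Summit windows on X (50 bp either side of the summit) were AT-rich, with 35.5% GC, against 43.0% in windows 500 bp to either side, and 36.4% at autosomal summits. In the top 2988 entries of replicates 1, 2 and 3 the X summit windows had 36.5%, 36.3% and 36.6% GC, against 42.4%, 42.8% and 42.3% in their flanks, a drop of over 5 percentage points in each (exact sign-flip p = 0.25). Against autosomal summits (37.5%, 37.3% and 39.5%) X was lower in 3 of 3 replicates, by a mean difference of -1.61 percentage points ± 1.11 (SD, n = 3, exact sign-flip p = 0.25).

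GA-rich words, the kind that CLAMP and the GAGA factor read, were fewer at X summits than beside them. GAGAG, searched on both strands like every motif here, was in 11.2%, 6.80% and 7.17% of X summit windows in replicates 1, 2 and 3, against 16.6%, 17.2% and 17.3% of their flanks. The summit share was lower in 3 of 3 replicates (mean difference -8.66 percentage points ± 2.83, SD, n = 3, exact sign-flip p = 0.25). Autosomal summits held it in 13.2%, 11.7% and 10.7%, so X was the lower in 3 of 3 (exact sign-flip p = 0.25, adjusted p = 0.833 over 10 motifs). In the combined list GAGAG was in 7.63% of X summits and 17.1% of X flanks, and the share was lower at the summit on autosomes too, at 10.1% of summits and 14.8% of flanks, and the difference between these 2 gaps was not tested. Of all windows of this length GAGAG is in 11.5% on X and 11.4% on autosomes.

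The longer GAGAGAGA, which contains GAGAG, was in 0 of 577 combined X summit windows, which allows a share of up to 0.520%. It was in 29 of 1154 X flanks (2.51%), in 15 of 2411 autosomal summits (0.622%) and 1.70% of autosomal flanks, and in 0.783% of all X windows, against 0.519% of all autosomal ones. The replicates' own X summits did hold it, at 0.578%, 0.166% and 0.410% in replicates 1, 2 and 3, below their flanks in each. CACACACA, a repeat commoner on X (3.02% of windows) than on autosomes (1.90%), was in 1.73% of X summits and 5.03% of X flanks, and in 1.20% of autosomal summits.

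Words rich in A and T were commoner at the summits. TATAAA, the TATA box, was in 21.4%, 17.2% and 18.2% of X summit windows in replicates 1, 2 and 3, against 11.9%, 10.03% and 10.7% of flanks, higher at the summit in 3 of 3 (exact sign-flip p = 0.25), and in 10.98% of all X windows. Autosomal summits held it in 18.7%, 17.6% and 16.4%, and X was higher in 2 of 3. TATCGATA, the full replication-related element, which contains CGATA, was in 8 of 577 X summits (1.39%), 1 of 1154 flanks (0.0867%) and 0.350% of all X windows. CGATA, read by the insulator protein BEAF-32, was in 13.5%, 13.9% and 13.5% of X summits in replicates 1, 2 and 3, against 11.8%, 11.2% and 10.8% of X flanks, higher at the summit in each, and 11.8% of all X windows hold it.

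The initiator word TCAGT was in 17.9%, 18.9% and 19.1% of X summits in replicates 1, 2 and 3, against 15.3%, 15.8% and 16.5% of X flanks (mean difference 2.74 percentage points ± 0.282, SD, n = 3, exact sign-flip p = 0.25), and in 14.9% of all X windows. The remaining motifs were rare. CACGTG, the E-box read by Myc and Max, was in 1.04% of X summits, 1.39% of X flanks and 1.14% of all X windows, and in 1.08% of autosomal summits. CAGGTAG, read by the early activator Zelda, was in 0.867% of X summits, 0.780% of flanks and 0.492% of windows. GGTCACAC, core promoter motif 1, was in 0.693%, 0.347% and 0.244% of the same. These 3 rest on 6, 5 and 4 X summits.

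Words chosen on autosomal peaks were then read on X. The 10 words of 7 bases that most exceeded their flanks over all autosomal summits were made of A and T alone, led by AAAATAT (or ATATTTT on the other strand). All 10 were commoner at X summits than in X flanks, AAAATAT in 66 of 577 (11.4%) and 84 of 1154 (7.28%). In the 100 strongest autosomal peaks the leaders were CCCTACA and ACCCTAC, which share CCCTAC and overlap each other. Of the 10 leaders there, 7 were commoner at the 100 strongest X summits than in their flanks. CCCTACA was in 2 of those 100 X summits and 17 of the 100 autosomal ones it was chosen on, and ACCCTAC in 6 and 16. These are not peaks of like strength. X had only 59 of the 300 highest-scoring combined peaks, so its 100 strongest reach lower ranks.

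CCCTAC, added after the data were seen, was in 6.36%, 5.47% and 7.17% of X summit windows in replicates 1, 2 and 3, against 1.64%, 1.33% and 1.33% of flanks. The summit was higher in 3 of 3 (mean difference 4.90 percentage points ± 0.862, SD, n = 3, exact sign-flip p = 0.25), and 1.43% of all X windows hold it. Autosomal summits held it in 5.14%, 5.28% and 5.12%, below X in 3 of 3 replicates (mean difference 1.15 percentage points ± 0.933, SD, n = 3, exact sign-flip p = 0.25). Over all combined peaks the shares were 5.72% on X (4.10 to 7.92) and 5.93% on autosomes (5.06 to 6.95). In the 50 strongest it was in 7 X summits (14%, 6.95 to 26.2) and 14 autosomal ones (28%, 17.5 to 41.7), and in the next 100 in 6 X summits (6%, 2.78 to 12.5) and 16 autosomal ones (16%, 10.1 to 24.4). In the rest the shares were 4.68% on X and 4.998% on autosomes. The intervals overlap in each class, and the word was chosen on the strongest autosomal peaks, which raises their share. Classes of equal count also reach lower ranks on X, which had 59 of the 300 highest-scoring combined peaks, so unlike scores are compared.

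**Figure D5:**
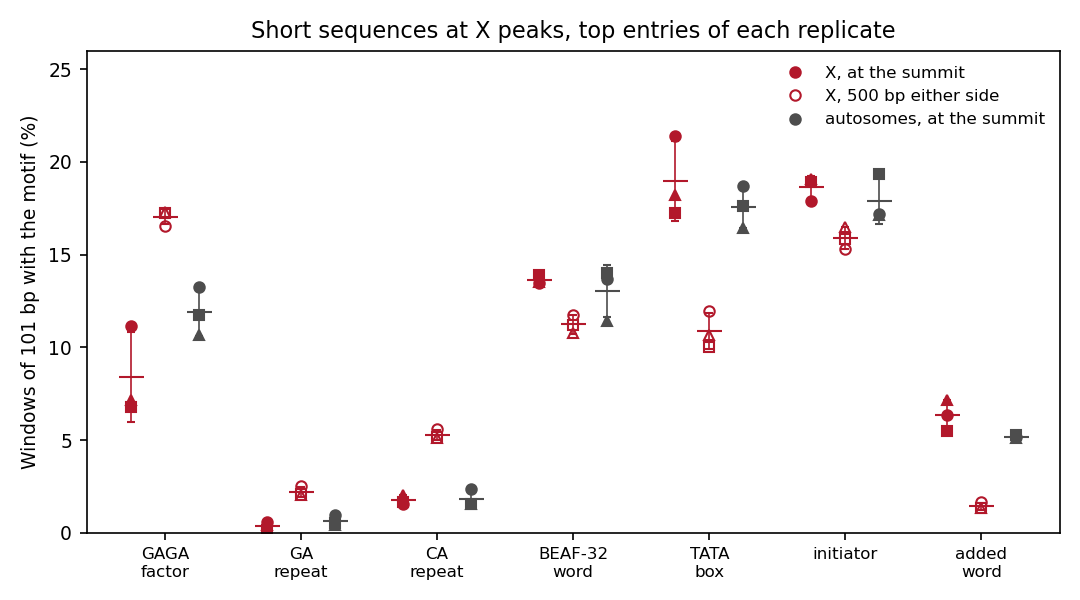
Share of 101 bp windows holding each motif (vertical axis, %) at X summits (filled red), 500 bp to either side of X summits (open red) and at autosomal summits (grey), for the top 2988 entries of replicates 1 (circles), 2 (squares) and 3 (triangles). Bars are means and whiskers SDs. The GAGA factor word lies lower at X summits than beside them, and the TATA box and the added word (CCCTAC) lie higher.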

How the data were processed

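ChIP-seq peaks of 3 biological replicates (1 transgenic line, embryos of 0 to 24 h, sonicated to 200 to 800 bp, per the labels) were used as narrowPeak lists on dm6. The peak score (column 7), a positive score with no fixed range, was deposited by the authors and not rescaled by them between lists as far as the labels say. The sources used here name no aligner, peak caller or threshold, and the control data set was not analysed here. Each replicate list has 30000 entries. Scores give no read counts, so depth and its precision are unknown.

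Lists were compared with the release 6 genome from RefSeq and, for genes, Ensembl's release 115 (BDGP 6.54, transposons left out), using Python 3.11.15, numpy 2.4.6, pandas 2.3.3, scipy 1.17.1 and matplotlib 3.10.9. Arm lengths match dm6. Members are combined peaks on X. Replicates were read at their top 2988 entries, with an overlap of at least 1 bp as support. X was set against autosomes by an exact two-sided sign-flip permutation test over replicates, on log2 ratios or differences, with Benjamini-Hochberg adjustment over 10 motifs. Shares have 95% Wilson intervals, which cover counting only, and the limit for a count of 0 is 3 counts of the total. Functions were tested on simulated data. Replicate p-values measure the spread between these samples only. Alternatives covered depth of list, TSS window, denominators, overlap, score, motif window and each replicate.

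Named are the 20 highest-scoring X peaks supported by every replicate and at most 500 bp from a protein-coding TSS, the 10 highest with no TSS within 2000 bp, up to 4 members with a peak from each gene list, roX1, roX2, Sxl, mof, genes of the 2 densest 100 kb windows and the 2 lowest peaks. Other genes, such as sisA, upd1, run, sc and the further ribosomal protein genes, were named after their values were seen. The members and lists were chosen with earlier results of these data known. Through synonyms in a RefSeq gene table, 3 list symbols were matched, and 1 more, phm, was left out because that table also gives it for ph-d. The sequence of 1 X peak chosen by the same order of score is not reported here.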

Additional observations from a re-analysis of the deposited data

How the results depend on the processing

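No paired analysis was possible because all samples belong to 1 group, so no other group shares their replicate numbers. X and autosomes were compared within each replicate throughout. The X over autosome log2 density ratio of the replicates (0.03) reversed to -0.37 with the top 10000 entries and to -0.32 with all 30000, and without one replicate it ran between -0.075 and 0.11, reversing without replicate 2. For promoter peaks (-0.06) it reversed to 0.021 in the top 1000 and ran between -0.097 and 0.013 without one replicate. Outside promoters (0.12) it reversed to -0.37 in the top 10000 and ran between -0.030 and 0.28 without one replicate. The promoter share difference reversed to 0.720 percentage points in the top 10000. The log2 median score ratio (0.02) reversed to -0.065 at promoter peaks and ran between -0.0089 and 0.062 without one replicate. The TATA box difference from autosomes reversed to -0.389 and -0.385 percentage points within 25 and 100 bp. In each case the cause was not tested.

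For the combined list, leaving out a replicate kept only peaks supported by both others, which leaves fewer peaks. Values that moved were the combined density ratio per gene (1.31; 1.14 to 1.23 without one replicate), the mean X share by rank, which was 18.0% for the top 2988 and 20%, 20.8%, 14.3% and 14.7% at 300, 1000, 10000 and 30000 entries, the X promoter share with windows of 250 and 1000 bp (27.0% and 56.8%), support by all 3 replicates (76.6% in the top 10000, 32.4% at 50% reciprocal overlap, 56.8% to 67.6% without one replicate), X genes with a peak (168 within 250 bp, 138 in the upper 50% by score, 130 to 162 without one replicate), summits with a neighbour (51.3% within 5 kb, 78.7% within 20 kb, 53.3% in the upper 50%), the motifs lower on X in all replicates (1 within 100 bp, against 3), and the shares of X summits with GAGAG (2.95% and 21.1% within 25 and 100 bp) and the TATA box (9.88% and 33.6%), where a wider window holds more words. Of 102 alternatives over 20 results, 65 kept their direction, or stayed within the replicate spread, the counting interval or 1.5 times the count. Size could still change, as with the log2 density ratio (0.30 in the top 1000, 0.25 per gene) and the promoter share difference (-9.76 in the top 1000, against -3.04). Density ratios at promoters and outside them, CCCTAC, the strong-peak words and the ribosomal protein comparison were chosen after seeing the data.

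Depth is unknown, peaks are not replicates, and the exact sign-flip test cannot pass 0.05 with 3 replicates.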
